A study of Mus musculus with 16 samples.

Results

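Expression in the vomeronasal organ (VNO) was compared between female mice of High Runner (HR) lines and female mice of Control lines, across every gene of the female count table. The comparison rests on the 8 columns of that table, the Control lines 1, 2, 4 and 5 and the HR lines 3, 6, 7 and 8, which are 8 of the 16 libraries of the series. Each library is 1 pool of the VNOs of 3 mice of 1 line, 24 mice in all. All mice were of the outbred Hsd:ICR background, 12 weeks old and from generation 88. HR lines had been bred for voluntary wheel running and Control lines had been bred without that selection. The question was whether breeding for running went with a different set of transcripts in this organ. A line is 1 breeding population and entered once, so the p-values measure the spread between lines, with the pooled mice and the preparation of the library included in it. Linetype is the study's word for the HR or Control group of lines.

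The VNO is a chemosensory organ of the nasal septum that detects pheromones and other signals from animals. Its sensory neurons mostly express 1 receptor gene each, from the *Vmn1r* family in the apical layer, with the G protein subunit encoded by *Gnai2*, or from the *Vmn2r* family in the basal layer, with that encoded by *Gnao1*. A few neurons express a formyl peptide receptor (*Fpr*). Mouse receptor genes lie in clusters of close relatives, and members of a cluster are known to differ between strains. In a bulk sample, fewer cells of a type and less RNA per cell cannot be told apart.

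The libraries held between 15998552 (Control line 5) and 70875276 (Control line 1) counts on genes, with a median of 36136221. Levels are given in CPM, the usual scaling of counts by the normalised library size, with no term for gene length, so they compare libraries for 1 gene and not genes with each other. Of 24407 genes, 16326 passed the filter on low counts and were tested. *Omp*, which encodes the olfactory marker protein of mature sensory neurons, had 1284 to 2165 CPM in Control lines and 1631 to 2588 CPM in HR lines. *Trpc2*, the transduction channel of these neurons, was listed at 0 in every library, and so was *Xntrpc*, whose annotated transcripts overlap it. Why both were listed at 0 was not tested. *Xist*, which is transcribed from the inactive X chromosome of females, had at least 25762 counts in each library, and no gene of a 4-gene Y chromosome list exceeded 4 counts.

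The libraries differed from each other along axes that crossed linetype. The first principal component of the log2 CPM of the genes tested held 41.4% of the variance. Its highest scores belonged to Control line 5 (70.2) and HR line 3 (45.6), and its lowest to HR line 8 (-47.1) and HR line 7 (-28.3). Endothelial markers were among the lists that went with this axis. All 10 had a positive loading, against 7999 of 16326 genes tested. Their summed level was 262 CPM in Control line 5 and 205 CPM in HR line 3 but 68.1 to 117 CPM in the other 6 libraries. Immediate early genes (16 of 16) and lipocalins (8 of 8) were also all positive. Most receptors had the opposite sign, with 48 of 156 *Vmn1r*, 38 of 120 *Vmn2r* and 3 of 19 receptors listed by the study positive. Of the transduction genes, 5 of 19 were positive. Single libraries also stood apart, counted as genes at least 4-fold above every other library. Control line 4 had 34 such genes, with the keratins *Krt17*, *Krt10* and *Krt6a* at the highest counts, and HR line 6 had 7, led by the urinary protein gene *Mup5*. HR line 3 had 5, led by *Bpifb9b*, *Lyz1* and *Cabs1*, and Control line 1 had 4, led by *5430401F13Rik*, *Miat* and *Odam*. Control line 2 had 3 (*Tmem221*, *Gsg1l* and *Tmem163*), Control line 5 had 2 (*Gp2* and *Adamts13*), and HR lines 7 and 8 had 0. In the opposite direction, HR line 8 had 29 genes at least 4-fold below every other library and Control line 5 had 18, with 2 to 9 in the remaining libraries.

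**Figure D1:**
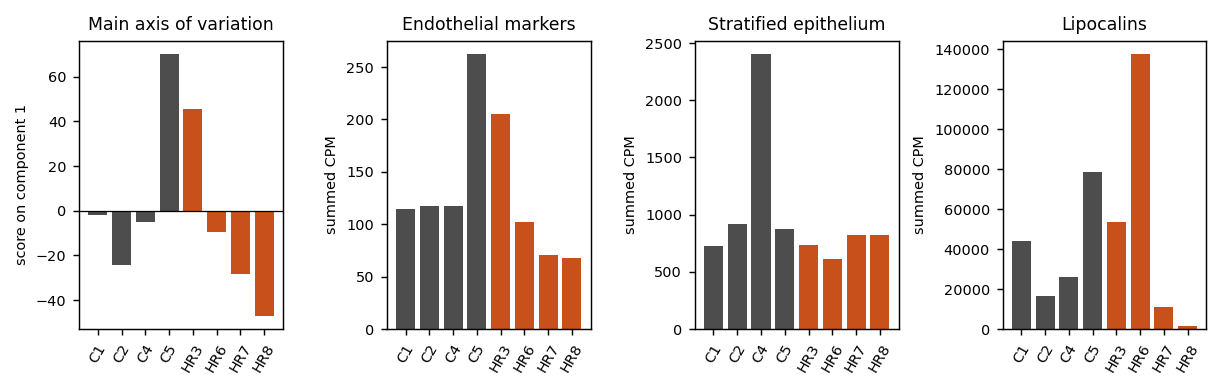
Each bar is 1 library, Control lines (C) in grey and HR lines in orange. The panels show the score on the first principal component and the summed CPM of endothelial markers, stratified epithelium markers and lipocalin genes. Control line 5 and HR line 3 share the high scores on component 1 and the high endothelial sums, Control line 4 is alone in stratified epithelium markers (2400 CPM), and HR line 6 has the highest lipocalin sum (137346 CPM).

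No gene passed the threshold. In edgeR (quasi-likelihood test, Benjamini-Hochberg adjustment), 0 of 16326 genes had an adjusted *p* under 0.05, which is 0%, and the lowest adjusted *p* was 0.9998. By unadjusted *p* under 0.05, 311 genes (1.9%) were set apart, of which 120 (0.735%) were higher and 191 (1.17%) lower in HR lines. The share of 1.9% is below the 0.05 that the threshold itself allows without any difference between groups. In 95 genes (0.582%) each HR library was above each Control library, and in 99 genes (0.606%) each was below. Of these 194 genes, 109 had an unadjusted *p* under 0.05 in the edgeR test. A random split of the libraries into equal groups would give more genes without overlap on average. The number of such genes is therefore a description and no sign of a difference. The median log2 fold change of all genes was 0.01. DESeq2 gave 5 genes with an adjusted *p* under 0.05, which is 0.0307% of the 16270 genes for which it returned one, and limma-voom gave 0. In counts simulated for this comparison over 16204 genes, the edgeR test called 56% of genes made to differ 2-fold and 91% of those made to differ 4-fold, with 4 unchanged genes called. The same counts gave DESeq2 81% and 97%, with 63 unchanged genes called. Genes made to differ were drawn only from those with an expected count above a set limit in the smallest library. Counts were simulated gene by gene, without an axis shared between genes such as the first component. These shares thus do not carry over to low-count genes such as *Cplx1*, and may not hold for these libraries.

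**Figure D2:**
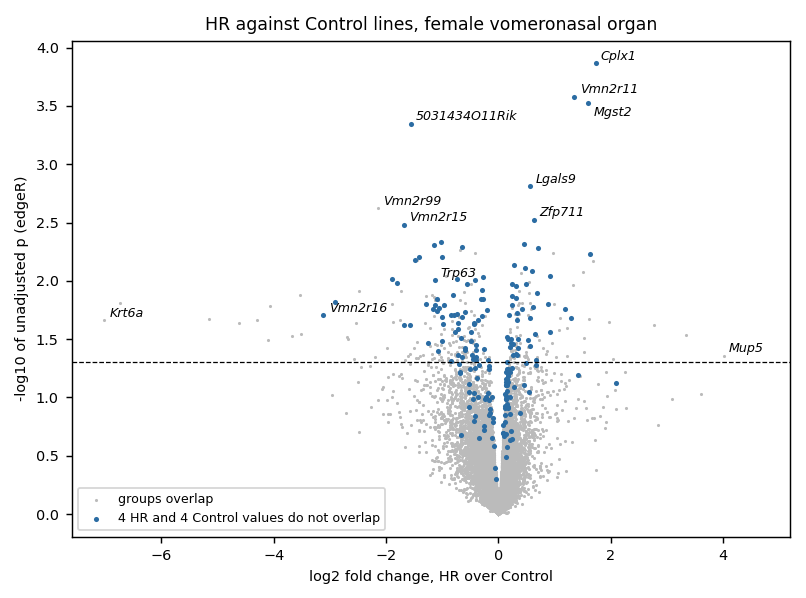
Each point is 1 of the 16326 genes tested, with the log2 fold change of HR over Control on the x axis and -log10 of the unadjusted edgeR p on the y axis. The dashed line marks the unadjusted threshold of 0.05. Blue points are the 194 genes whose 4 HR and 4 Control values do not overlap. *Cplx1*, *Vmn2r11*, *Mgst2* and *5031434O11Rik* lie highest, while the most extreme fold changes (*Krt6a*, *Mup5*) belong to genes whose groups overlap.

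The 5 genes that DESeq2 called were *Cplx1*, *Vmn2r11* and *Mgst2*, higher in HR lines, and *5031434O11Rik* and *Vmn2r99*, lower in HR lines. Log2 fold changes and their SE are those of edgeR unless another tool is named. *Cplx1* (ENSMUSG00000033615.9, GRCm38 chromosome 5, 108518554 to 108550024) encodes complexin 1, which binds the SNARE complex and regulates the release of synaptic vesicles. Its level was 0.453, 0.263, 0.467 and 0.323 CPM in Control lines 1, 2, 4 and 5, and 1.5, 1.19, 1.18 and 1.36 CPM in HR lines 3, 6, 7 and 8. The lowest HR line was more than 2-fold above the highest Control line, and *Cplx1* was the only gene tested with such a gap over all 8 libraries. Counts behind these levels were small, 5 to 55 per library. The edgeR log2 fold change was 1.73 with an SE of 0.27, a 3.33-fold higher level in HR lines. The adjusted *p* of *Cplx1* was 0.9998 by edgeR and 0.0124 by DESeq2. With any 1 library left out, the edgeR log2 fold change of *Cplx1* lay between 1.61 and 1.84.

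*Vmn2r11* (ENSMUSG00000091450.2, chromosome 5, 109043360 to 109059569) encodes a type 2 vomeronasal receptor, a family of G protein-coupled receptors with a large extracellular domain that bind peptides and proteins. Control lines 1, 2, 4 and 5 had 25.9, 16.5, 22.9 and 16.1 CPM, and HR lines 3, 6, 7 and 8 had 37.1, 65.4, 62.3 and 44.3 CPM. The groups did not overlap, and the mean was 52.3 ± 13.8 CPM in HR lines against 20.4 ± 4.85 CPM in Control lines (SD, n = 4 each). The edgeR log2 fold change was 1.35 with an SE of 0.23. The adjusted *p* of *Vmn2r11* was 0.9998 by edgeR and 0.00034 by DESeq2.

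*Mgst2* and *5031434O11Rik* are near neighbours on chromosome 3 that differed in opposite directions. *Mgst2* (ENSMUSG00000074604.9, 51660360 to 51682677) encodes a microsomal glutathione S-transferase, an enzyme that conjugates glutathione and can form leukotriene C4. It had 0.992, 0.578, 1.06 and 0.775 CPM in Control lines 1, 2, 4 and 5, and 1.84, 3.11, 2.73 and 2.85 CPM in HR lines 3, 6, 7 and 8. The HR lines were all above the Control lines, with an edgeR log2 fold change of 1.60 (SE 0.28). The adjusted *p* of *Mgst2* was 0.9998 by edgeR and 0.00287 by DESeq2. *5031434O11Rik* (ENSMUSG00000097885.7, 51560035 to 51567117), annotated as a processed transcript without a coding sequence, had 4.31, 5.15, 4.43 and 3.04 CPM in Control lines against 0.862, 1.95, 1.48 and 1.44 CPM in HR lines. Each HR line was below each Control line, with an edgeR log2 fold change of -1.56 (SE 0.28). The adjusted *p* of *5031434O11Rik* was 0.9998 by edgeR and 0.00106 by DESeq2. On the opposite strand this gene shares 845 bases with *Setd7*, a lysine methyltransferase gene. *Setd7* had 173, 186, 161 and 140 CPM in Control lines and 109, 143, 123 and 117 CPM in HR lines. The *Setd7* levels overlapped between HR line 6 and Control line 5, and its log2 fold change was -0.42 (SE 0.12). The library kit was directional, but the sources used here do not give the strand setting of the counting, so reads of *Setd7* and *5031434O11Rik* in the shared bases may not be separated. *Maml3*, on the other side of *Mgst2*, had a log2 fold change of -0.09 (SE 0.09).

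*Vmn2r99* (ENSMUSG00000090304.4, chromosome 17, 19361949 to 19401098) was the receptor with the largest difference among the DESeq2 calls. Control lines 1, 4 and 5 had 60, 38.2 and 59.1 CPM, whereas Control line 2 had 11 CPM. The HR lines 3, 6, 7 and 8 had 5.70, 14.3, 9.75 and 8.08 CPM, so Control line 2 lay inside the range of the HR lines. The edgeR log2 fold change was -2.15 with an SE of 0.51, a 4.44-fold higher level in Control lines. The adjusted *p* of *Vmn2r99* was 0.9998 by edgeR and 0.0152 by DESeq2.

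**Figure D3:**
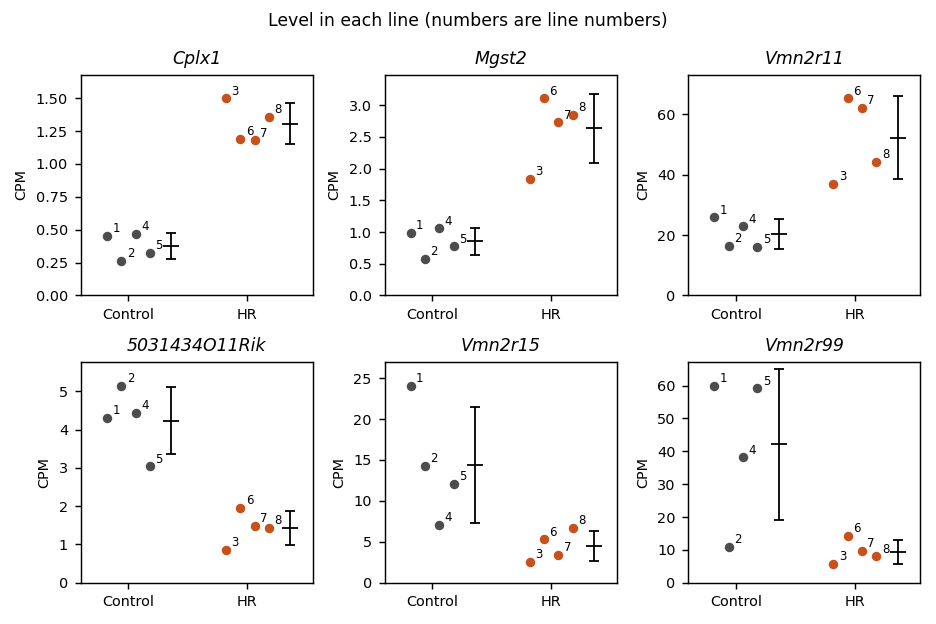
Each point is the CPM of 1 library, labelled with its line number, for 6 genes. The bars beside the points are the mean and SD of 4 lines. For *Cplx1*, *Mgst2*, *Vmn2r11*, *5031434O11Rik* and *Vmn2r15* the HR and Control points do not overlap, and for *Vmn2r99* Control line 2 (11 CPM) lies among the HR lines.

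Below these, the non-overlapping genes with higher levels in HR lines had small differences in most cases. *Lgals9*, which encodes the sugar-binding protein galectin 9, had 44.8 to 62.6 CPM in Control lines and 68.2 to 88.1 CPM in HR lines, a log2 fold change of 0.57 (SE 0.13). *H2-T10*, a nonclassical class I gene of the major histocompatibility complex, had 1.42 to 2.42 CPM in Control lines and 3.04, 9.45, 2.47 and 7.58 CPM in HR lines 3, 6, 7 and 8. Its log2 fold change was 1.64 (SE 0.45), set mainly by HR lines 6 and 8, and it shares all of its 5590 bases with the annotated gene *Gm7030*. *Zfp711*, a zinc finger gene, had 13.3 to 17.1 CPM in Control and 18.7 to 28.3 CPM in HR lines, and *Pof1b*, which encodes an actin-binding protein of epithelia, had 74.9 to 137 CPM in Control and 156 to 212 CPM in HR lines. These 2 genes are neighbours on the X chromosome. Their log2 fold changes were 0.63 (SE 0.15) and 0.71 (SE 0.19). The other 5 of the 12 genes with the smallest *p* were the zinc finger genes *Zfp830* (log2 fold change 0.45) and *Zfp677* (0.60), and *Ccdc117* (0.27), *6030419C18Rik* (0.47) and *D030025P21Rik* (0.92). Beyond *Cplx1*, *Vmn2r11* and *Mgst2*, none had a DESeq2 adjusted *p* under 0.178.

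The 12 non-overlapping genes with lower levels in HR lines and the smallest *p* include *5031434O11Rik*, described above. *Trp63*, the transcription factor of basal cells in stratified epithelia, had 10.9, 19 and 26.9 CPM in Control lines 2, 4 and 5 and a little less than line 2 in Control line 1, where it had 731 counts. HR lines 3, 6, 7 and 8 had 10, 8.14, 4.99 and 7.44 CPM. Control line 1 and HR line 3 were close to each other, and the log2 fold change was -1.13 (SE 0.34). *Trim29*, which is also expressed in basal epithelial cells, had 3.98, 3.84, 22.8 and 7.24 CPM in Control lines and 2.11 to 3.07 CPM in HR lines. Its log2 fold change was -1.90 (SE 0.57), and it was -0.98 at the smallest with 1 library left out. *Tns4*, which encodes a tensin of focal adhesions, likewise had its highest level in Control line 4 (13.9 CPM against 5.58 to 8.27 CPM in the other Control lines and 3.14 to 4.94 CPM in HR lines). *P2ry2*, a receptor for extracellular ATP and UTP, had 0.921 to 2.65 CPM in Control and 0.549 to 0.787 CPM in HR lines, a log2 fold change of -1.42 (SE 0.40). *Cenpi*, a centromere gene, and *Brip1*, a DNA helicase gene of DNA repair, had log2 fold changes of -1.03 (SE 0.27) and -1 (SE 0.28), with 10 to 71 counts per library. The others were *Vmn2r15* (-1.68), *Ano7* (-1.48), *Gm10536* (-0.73), *Fam83b* (-0.65) and *Tmtc2* (-0.28). Except for *5031434O11Rik*, none of the 12 had a DESeq2 adjusted *p* under 0.141.

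The receptors were described next, beginning with the 19 that the study listed from these and the male libraries, so their directions here are not independent evidence. All 19 were tested. Their log2 fold changes had a median of 0.92, against 0.01 for all genes, 11 were above 0 and 8 below, and 6 had an unadjusted *p* under 0.05 by the edgeR test, 2 higher and 4 lower in HR lines, against 1.9% of all genes. The 2 higher receptors were *Vmn2r11* and *Vmn2r9*, and the 4 lower ones *Vmn2r99*, *Vmn2r15*, *Vmn1r236* and *Vmn2r16*. *Vmn2r9* (chromosome 5, 108835273 to 108852601) had 9.58, 17, 6.22 and 11.3 CPM in Control lines 1, 2, 4 and 5, and 15.9, 53.6, 37.3 and 18.3 CPM in HR lines 3, 6, 7 and 8. Control line 2 was above HR line 3, and the log2 fold change was 1.51 (SE 0.44). *Vmn2r15* (chromosome 5, 109285670 to 109297644) had 24.1, 14.3, 7.10 and 12.1 CPM in Control lines and 2.55, 5.31, 3.38 and 6.72 CPM in HR lines, without overlap, a log2 fold change of -1.68 (SE 0.42). *Vmn1r236* (chromosome 17, 21282942 to 21294007), a type 1 receptor, had 36.5, 10.9, 22.9 and 18.0 CPM in Control lines and 4.24, 6.98, 9.49 and 11.6 CPM in HR lines, so that Control line 2 was below HR line 8. Its log2 fold change was -1.45 (SE 0.41).

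**Figure D4:**
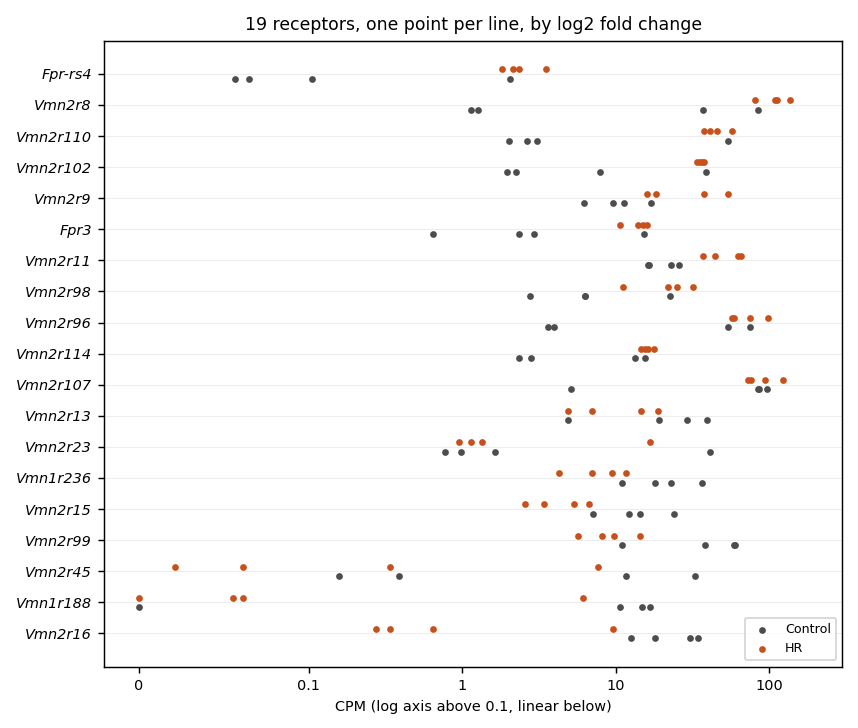
Each point is the CPM of 1 library for 1 of 19 receptors, Control lines in grey and HR lines in orange, ordered from the highest to the lowest log2 fold change. The x axis is logarithmic above 0.1 CPM and linear below. In *Fpr-rs4*, *Vmn2r110* and *Vmn2r102* 1 Control point (line 2) sits with the HR points, and in *Vmn2r16* 1 HR point (line 8) sits near the Control points.

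Several of these receptors had 2 distinct levels, with 1 line at the level of the other linetype. *Fpr-rs4*, a formyl peptide receptor, had 0.0567, 0.104 and 0.0646 CPM in Control lines 1, 4 and 5, which is 1 to 4 counts, but 2.05 CPM in Control line 2 and 2.14, 1.80, 2.35 and 3.51 CPM in HR lines 3, 6, 7 and 8. *Vmn2r110* had 3.07, 2.00 and 2.65 CPM in Control lines 1, 4 and 5, but 54.1 CPM in Control line 2 and 37.8 to 57.0 CPM in HR lines. *Vmn2r102* had 2.24, 7.83 and 1.94 CPM in Control lines 1, 4 and 5, but 38.5 CPM in Control line 2 and 33.6 to 37.5 CPM in HR lines. In each of the 3, Control line 2 lay within or just above the range of the HR lines and the other 3 Control lines lay at least 4-fold below every HR line. Over all 8 libraries the log2 fold changes were 2.25 (SE 1.04), 1.57 (SE 1.02) and 1.52 (SE 0.85). With Control line 2 left out, which was 1 of 8 such fits, the log2 fold changes of *Fpr-rs4* and *Vmn2r110* were 4.98 and 4.13. The line left out is the one that departs from the others and *Fpr-rs4* passes the low-count filter through the HR lines alone, so these values are a description. These 3 receptors were the only genes tested with a gap of 4-fold or more between HR and Control lines when that line was left out.

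*Vmn2r16* (chromosome 5, 109330162 to 109370247) was the opposite case. Control lines 1, 2, 4 and 5 had 34.1, 30.5, 12.6 and 18.0 CPM, HR lines 3, 6 and 7 had 0.337, 0.274 and 0.646 CPM, and HR line 8 had 9.65 CPM. HR line 8 was thus below each Control line but nearer to them than to the other HR lines. The log2 fold change was -3.12 (SE 1.09), and with HR line 8 left out the gap between the lowest Control line and the highest HR line was 4.17 on the log2 scale. *Vmn2r107* had 5.13 CPM in Control line 4 and 73.1 to 123 CPM in the other 7 libraries. *Vmn1r188* had 16.7 and 14.8 CPM in Control lines 1 and 2, 409 counts in Control line 4 and 6.11 CPM in HR line 7, and at most 0.061 CPM in the other 4 libraries. *Vmn2r45* had 11.7 and 32.9 CPM in Control lines 1 and 4 and 7.64 CPM in HR line 8, and at most 0.388 CPM elsewhere. The remaining receptors of the 19, *Fpr3*, *Vmn2r8*, *Vmn2r96*, *Vmn2r98*, *Vmn2r114*, *Vmn2r13* and *Vmn2r23*, overlapped between linetypes and had unadjusted edgeR *p* from 0.0708 to 0.443.

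Across the families, the *Vmn1r* and *Vmn2r* genes had medians near that of all genes. Of 211 *Vmn1r* genes, 156 were tested, with a median log2 fold change of -0.01 and 3 higher and 3 lower at an unadjusted *p* under 0.05. Outside the 19, these included *Vmn1r196* (log2 fold change 0.40, SE 0.12), *Vmn1r68* (-0.55, SE 0.17) and *Vmn1r228* (0.22, SE 0.09). Of 126 *Vmn2r* genes, 120 were tested, with a median of 0.01, 2 higher and 5 lower. The 7 members of family C, which are expressed together with other *Vmn2r* genes in basal neurons, had a median of -0.01 and 0 with an unadjusted *p* under 0.05, with *Vmn2r2* at 186 to 254 CPM in all libraries. Of the 6 *Fpr* genes, 5 were tested, all with a log2 fold change above 0, a median of 0.80 and 0 with an unadjusted *p* under 0.05. *Fpr2* and *Fpr-rs3* were each at 0.02, *Fpr-rs6* was at 0.80, and *Fpr3* (1.42) and *Fpr-rs4* (2.25) are on the study's list. Without Control line 4, 4 of 5 were above 0. Of 1125 olfactory receptor genes (*Olfr*), 28 were tested and 2 were lower, *Olfr30* (-1.18) and *Olfr301* (-1.39). Against the background of 1.9% of all genes, the shares were 6 of 156, 7 of 120 and 2 of 28.

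Genes whose HR and Control lines do not overlap were in part neighbours. Of the 188 such genes with a position, 26 formed 12 sets in which adjacent members lay within 200 kb. How many of as many other tested genes would be neighbours was not counted, so this is a description. On chromosome 5, the stretch from *Cplx1* to *Vmn2r16* with 100 kb on each side held 21 tested genes. Of these, 6 did not overlap, against 0.582% higher and 0.606% lower without overlap over all genes. At an unadjusted edgeR *p* under 0.05, 3 were higher and 4 lower, against 1.9% of all genes. The stretch was chosen after these values were seen. Its ends, *Cplx1* and *Vmn2r16*, are among the 6, so these shares only describe it. It holds the 10 receptors from *Vmn2r8* to *Vmn2r17*, of which 5 had a log2 fold change above 0. *Idua*, a lysosomal enzyme gene, had 15.8 to 17.6 CPM in Control and 12.3 to 14.7 CPM in HR lines, a log2 fold change of -0.30 (SE 0.11), and it overlaps *Dgkq* (-0.07) and *Slc26a1* (-0.16). *Tmed11*, which shares 3521 bases with *Vmn2r8* on the same strand, had 0.0142, 0, 1.63 and 0.711 CPM in Control lines 1, 2, 4 and 5 and 2.37 to 2.93 CPM in HR lines. *Vmn2r8* itself had 1.13, 1.26, 85.0 and 36.8 CPM in Control lines and 81.1 to 136 CPM in HR lines, so both genes were low in Control lines 1 and 2. Between *Cplx1* and these, *Gak*, *Tmem175* and *Fgfrl1* had log2 fold changes of 0.01, -0.02 and 0.08.

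**Figure D5:**
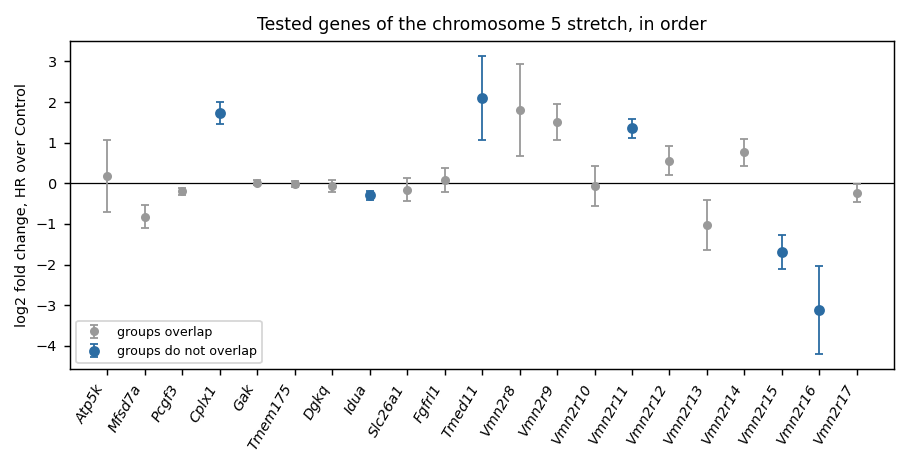
Tested genes of the chromosome 5 stretch in the order of their positions (x axis, not to scale), with the log2 fold change of HR over Control and its SE (y axis). Blue points are genes whose HR and Control values do not overlap. *Cplx1*, *Tmed11* and *Vmn2r11* are above 0, and *Vmn2r15* and *Vmn2r16* are below 0.

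Receptors of this stretch with log2 fold changes of opposite sign have similar sequences before their start sites. By edgeR none of these receptors had an adjusted *p* under 0.05, and by DESeq2 only *Vmn2r11* did. The stretches are shown for *Vmn2r9* and *Vmn2r11*, higher in HR lines, and for *Vmn2r15*, lower in HR lines, chosen after their values were seen. They are the bases from 250 to 121 before the RefSeq start on GRCm38.p6, on the minus strand, at chr5:108852631-108852760, chr5:109059573-109059702 and chr5:109297677-109297806, and lie before the annotated genes. Capitals mark the run of 20 bases that is the longest these 3 stretches share.
Vmn2r9: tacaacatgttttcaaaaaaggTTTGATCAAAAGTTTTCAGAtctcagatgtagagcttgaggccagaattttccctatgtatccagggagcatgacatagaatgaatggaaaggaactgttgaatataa
Vmn2r11: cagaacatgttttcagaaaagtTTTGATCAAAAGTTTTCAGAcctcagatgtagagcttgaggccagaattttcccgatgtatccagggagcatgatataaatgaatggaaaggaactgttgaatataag
Vmn2r15: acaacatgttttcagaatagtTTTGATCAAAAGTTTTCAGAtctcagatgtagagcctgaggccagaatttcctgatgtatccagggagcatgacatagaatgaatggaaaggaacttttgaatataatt
Over the whole windows of 300 bases, *Vmn2r9* and *Vmn2r11* were 94.7% identical, and *Vmn2r15* was 87.8% identical to *Vmn2r9* and 87.5% to *Vmn2r11*. The run, searched on both strands, was found in 8 of 32851 windows of the same length (0.0244%), those of *Vmn2r8* to *Vmn2r15*, all of this cluster. *Vmn2r8*, *Vmn2r10*, *Vmn2r12*, *Vmn2r13* and *Vmn2r14* carry it too. They had log2 fold changes of 1.81, -0.06, 0.56, -1.03 and 0.76, none with an unadjusted edgeR *p* under 0.0547. *Vmn2r16* (-3.12) was not among the 8, and its window was 83%, 84% and 79.7% identical to those of *Vmn2r9*, *Vmn2r11* and *Vmn2r15*.

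Elsewhere, the receptor stretch of chromosome 17 from *Fpr3* to *Vmn1r236* held 40 tested receptors, with a median log2 fold change of 0.02. Of these, 1 was higher and 4 were lower at an unadjusted edgeR *p* under 0.05, against 1.9% of all genes. The ends of this stretch are receptors of the study's list, which came in part from these libraries, so this share only describes it. Next to it, the zinc finger genes *Zfp677* and *Zfp52* (0.60 and 0.53) did not overlap between linetypes, while *Zfp54*, *Zfp51* and *Zfp53*, which lie between them, had log2 fold changes of -0.07, -0.14 and -0.02. On chromosome 11, *Zfp830* and *Rffl*, a ubiquitin ligase gene, were higher without overlap (0.45 and 0.31), with *Lig3*, a DNA ligase gene between them, at 0.14. By chromosome, the share of tested genes with an unadjusted *p* under 0.05 ranged from 0.548% on chromosome 12 to 3.00% on chromosome 17.

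Genes of signalling in the sensory neurons differed little. In the list of transduction genes, 19 were tested, 0 had an unadjusted *p* under 0.05 and the median log2 fold change was 0.07. *Gnao1* had 309 to 466 CPM in Control and 327 to 525 CPM in HR lines, and *Gnai2* had 725 to 1168 CPM and 866 to 1314 CPM. Their log2 fold changes, 0.06 (SE 0.18) and 0.04 (SE 0.18), were smaller than the spread between lines. *Itpr3*, an intracellular calcium release channel, had the smallest *p* of the list, with 50.4 to 88.3 CPM in Control and 34.0 to 67.2 CPM in HR lines. Lists of neuron maturation (19 tested, median -0.04), of genes that separate the apical and basal layers (18 tested, -0.02), of *H2-Mv* genes, which basal neurons express together with receptors (9 tested, -0.11), of antigen presentation (16 tested, 0.13) and of the main olfactory transduction pathway (10 tested, 0.03) also had 0 members with an unadjusted *p* under 0.05. So did hormone receptors (18 tested, -0.07) and oxidative phosphorylation (20 tested, 0.08). Among maturation genes, the proliferation gene *Mki67* had 6.67 to 11.3 CPM in Control and 4.04 to 7.76 CPM in HR lines, a log2 fold change of -0.54 (SE 0.25). Immediate early genes had 0 of 16 with an unadjusted *p* under 0.05 and 13 below 0, and their median moved from -0.12 to -0.61 without HR line 3.

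In lists of release and metabolism, 1 or 2 genes each had an unadjusted *p* under 0.05, against 1.9% of all genes. *Cplx1* was the only 1 of 14 synaptic release genes with an unadjusted *p* under 0.05, and the median of that list was 0.11. Of 20 genes of glutathione conjugation and related detoxification, 2 were higher, *Mgst2* and *Gstm1*. *Gstm1*, a cytosolic glutathione S-transferase, had 221, 196, 204 and 172 CPM in Control lines 1, 2, 4 and 5 and 206, 258, 327 and 362 CPM in HR lines 3, 6, 7 and 8, so HR line 3 lay in the Control range, and its log2 fold change was 0.54 (SE 0.17). Of 23 interferon-response genes, 1 was lower, the guanylate-binding protein gene *Gbp10*. It had 2.21, 0.0525, 1.45 and 2.39 CPM in Control lines and 0.787, 0.061, 0.0646 and 0.111 CPM in HR lines, with Control line 2 at the level of HR lines 6, 7 and 8. Its log2 fold change was -2.68 (SE 1.04).

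Markers of other cells in the dissected tissue included the list with the median farthest from 0. Of 24 markers of stratified epithelium, 18 were tested, 10 were lower and 0 higher in HR lines at an unadjusted *p* under 0.05, and the median log2 fold change was -1.79. Over all genes, 1.17% were lower and 0.735% higher. Their summed level was 727, 918, 2400 and 873 CPM in Control lines 1, 2, 4 and 5 and 735, 610, 823 and 823 CPM in HR lines 3, 6, 7 and 8. Without Control line 4, 4 were lower and the median was -0.30. *Krt5*, a keratin of basal cells, had 30, 32.9, 149 and 31.1 CPM in Control lines and 20.7, 16.6, 12.2 and 20 CPM in HR lines, without overlap, whereas *Krt6a* had 175 CPM in Control line 4 and at most 1.24 CPM in the other 7 libraries. *Trim29* and *Tns4* were also highest in Control line 4, and *Trp63* was highest in Control line 5, and the part of this tissue in their differences was not tested.

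Secreted proteins of nasal glands varied widely between libraries of both linetypes. Lipocalins and odorant-binding proteins, which bind small odorants and pheromones, summed to 16453 to 78329 CPM in Control lines and to 53628, 137346, 10885 and 1466 CPM in HR lines 3, 6, 7 and 8. All 8 tested members had a log2 fold change above 0, and 1 was higher at an unadjusted *p* under 0.05, *Mup5*, with 5.33 to 102 CPM in Control lines, 3868 CPM in HR line 6 and 23 to 84.6 CPM in the other HR lines. *Mup5* was thus high in 1 library, and 1 of 8 stands against 0.735% of all genes. The direction of the list rested on the same library: without HR line 6, 0 of 8 were above 0, the median log2 fold change was -1.04 instead of 0.48, and 1 was lower and 0 higher at an unadjusted *p* under 0.05. *Obp1a*, *Lcn11* and *Mup4*, at 1.06, 0.67 and 0.66 over all libraries, were then at -2.04, -1.84 and -1.99. Gland markers (17 tested, 1 higher and 1 lower, median -0.26) summed to 5047 to 38135 CPM in Control and 1114 to 26074 CPM in HR lines. The 1 higher was *Dcpp1* (1.97, SE 0.71) and the 1 lower *Reg3g* (-1.47, SE 0.63), both expressed in secretory epithelia. Over all genes, 0.735% were higher and 1.17% lower. The levels of both genes overlapped between linetypes, and *Dcpp1* shares 1974 bases with *Dcpp2* on the same strand.

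Markers of other cells had few members with an unadjusted *p* under 0.05, against 1.9% of all genes. On the first component, all 10 endothelial and 18 of 20 cilia markers had a positive loading, but 3 of 9 muscle and 3 of 7 olfactory neuron markers did. All 10 endothelial markers and 19 of 20 cilia markers were below 0, with medians of -0.42 and -0.41. In both lists, 0 members had an unadjusted *p* under 0.05. When HR line 3, which scores high on that component, was left out, 7 endothelial and 6 cilia markers were lower at that threshold. In that fit, 655 of 16464 genes tested were lower, against 191 of 16326 with all libraries, so the background rose as well. Glial markers (10 tested, median -0.24) had 1 lower gene, *Mbp*, which encodes myelin basic protein, with 58.8 to 67.1 CPM in Control and 45.2 to 58.0 CPM in HR lines, without overlap. Markers of muscle (9 tested, median 0.14), cartilage and bone (12, 0.04), red cells (1, -0.18), lymphoid cells (7, -0.07), myeloid cells (10, -0.05) and olfactory neurons (7, 0.03) had 0 with an unadjusted *p* under 0.05.

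*Upb1*, a pyrimidine catabolism gene, was not tested over 8 libraries, since it did not pass the filter, and is named after its values were seen. Counts were 9, 2, 7 and 1 in Control lines 1, 2, 4 and 5 and 6, 577, 700 and 175 in HR lines 3, 6, 7 and 8, so HR line 3 was at the level of the Control lines. Without HR line 3 it passed the filter, but only through the HR lines in which it is high and after the 1 HR line at the Control level was dropped, so its fit there is no support for a difference.

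How reads were kept bears on the receptors. The authors dropped reads with any mismatch to the reference and reads with more than 1 location, so a line that carries other alleles of a gene can lose counts without a lower transcript level, which was not tested. The annotated transcripts of the 19 receptors were cut into words of 75 bases, and the share of words that no other gene holds had a median of 92.3%, from 42.4% in *Vmn2r45* to 100% in *Fpr-rs4*. The share was 89.7% in *Vmn2r11*, 89.4% in *Vmn2r15*, 91.8% in *Vmn2r16* and 98.1% in *Vmn2r99*. Words were compared with annotated transcripts and not with the whole genome, so the share of reads that were kept can be lower.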

How the data were processed

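RNA of 8 female VNO pools was sequenced by the study as directional single-end libraries depleted of ribosomal RNA. With STAR 2.6.1d, the authors placed the reads on GRCm38, allowing no mismatch and discarding reads that fit more than 1 place, and deposited the number of reads per gene as raw counts. The counting tool, its annotation and its use of strand are not given in the sources used here. The study tested with Cuffdiff, which needs alignments. The other deposited tables were not used here.

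Of 24411 genes listed, 4 entries of 2 repeated names were left out and 23 names that a spreadsheet had turned into dates were used as listed. Every column of the table was used. Counts were tested with edgeR 4.0.16 (quasi-likelihood test, robust option, TMM normalization, filterByExpr at a minimum count of 10) in R 4.3.3, and *p* were adjusted by Benjamini-Hochberg over all genes tested and called under 0.05. The SE of a log2 fold change was its size divided by the square root of the edgeR F statistic. A prior count of 2 was used for log2 CPM. The biological coefficient of variation was 0.2798, and depth limits genes with low counts, such as *Cplx1* with 5 to 55 counts per library. The test was tried on simulated data. Alternatives were DESeq2 1.42.0, limma-voom (limma 3.58.1) with and without quality weights, 2 other normalizations, 2 other filters, no robust option, thinning to the smallest library and leaving out each line. List counts without Control line 4, HR line 3 or HR line 6 were chosen after seeing the data. Tables and plots were made in Python 3.11.15 with pandas 2.3.3, numpy 2.4.6, matplotlib 3.10.9 and Biopython 1.88.

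Named genes are those past the threshold in edgeR or DESeq2, the 12 higher and 12 lower with the smallest *p* among genes whose groups do not overlap, the 19 receptors of the study, up to 4 genes of the smallest *p* per list, up to 3 genes per library that stands apart, and *Omp*, *Gnao1*, *Gnai2* and *Trpc2*. The genes, the 27 lists and the tests were chosen with earlier results of these data known, and lists were described and not tested. Positions of 23306 genes come from GENCODE M21 on GRCm38, and upstream sequences from RefSeq on GRCm38.p6.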

Additional observations from a re-analysis of the deposited data

Results flagged for a closer look

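Among 150 groups of 4 lines looked at (44 genes and 31 lists, for each linetype), 11 had 1 line far from the other lines of its linetype, measured as the gap to the nearest line over the whole range of log2 CPM. Chance alone sets apart about 1 in 20 such groups. Levels are in CPM.

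Most of these were receptors, which were a large part of the 44 genes looked at, since these include the 19 receptors of the study. *Fpr-rs4* was 2.05 in Control line 2 against 0.0567 to 0.104 in the other Control lines, and *Vmn2r110* was 54.1 in Control line 2 against 2.00 to 3.07. *Vmn2r107* was 5.13 in Control line 4 against 83.9 to 96.1 in the other Control lines. *Vmn1r188* was 0 in Control line 5 against up to 16.7 in the other Control lines, and in HR lines it was 6.11 in line 7 against 0 to 0.061. *Vmn2r23* was 16.8 in HR line 3 against 0.947 to 1.34 in the other HR lines.

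Outside the receptors, *Brip1* was 0.387 in HR line 8 against 0.559 to 0.600 in the other HR lines. Control line 5 was apart in 3 measures, with *Gnao1* at 309 against 438 to 466, summed oxidative phosphorylation genes at 3013 against 3257 to 3278, and summed endothelial markers at 262 against 115 to 117. *Xist*, the only gene with more than a few counts in the list that checks sex, was 901 in Control line 4 against 1665 to 1759 in the other Control lines. Control line 4 is also the library with high levels of stratified epithelium markers, and whether these go together was not tested.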

How the results depend on the processing

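The count of genes with an adjusted *p* under 0.05, 0 by edgeR, was 5 by DESeq2 and 0 to 2 with 1 line left out (2 without Control line 2, *Fpr-rs4* and *Vmn2r110*, and 1 without HR line 3, *Upb1*, each after the line that departs from its pattern was dropped), and 0 in the other 8 alternatives that kept all lines. Genes with an unadjusted *p* under 0.05 were 313 higher and 435 lower with quality weights, 314 lower without the filter (479 in both directions), and 89 to 265 higher and 131 to 655 lower with 1 line left out, the highest of both without HR line 3 and 361 lower without Control line 2. Genes without overlap were 151 to 692 higher and 181 to 621 lower with 1 line left out, by construction more than with 8 libraries, and the highest of both without HR line 3. Members with an unadjusted *p* under 0.05 among stratified epithelium markers, 10 as reported, were 4 by DESeq2, 4 by limma-voom, 2 with quality weights and 4 to 15 with 1 line left out (4 when Control line 4 was dropped, 15 for Control line 1, 5 for HR line 6, and 6 each for HR lines 3 and 7). In *Vmn1r* they were 11 with quality weights and 4 to 11 with 1 line left out (11 without Control line 2), in *Vmn2r* 15 by limma-voom, 18 with quality weights and 7 to 16 (16 without Control line 2, 12 without HR line 8), and among the 19 receptors 14 by limma-voom, 15 with quality weights and 6 to 12 (12 without Control line 2). The background of these list counts also moved. Over all genes tested, 311 of 16326 had an unadjusted *p* under 0.05 by edgeR, 384 by DESeq2, 341 by limma-voom and 748 with quality weights. Without Control line 2 they were 526 of 16504, and without HR line 8 they were 220 of 16505. The list counts are therefore to be read against all genes in the same fit. Without the filter, 280 genes were at least 4-fold from every other library, against 129.

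Of 744 values for 44 named genes under 17 alternatives, 731 kept direction and side of the threshold, 7 passed it (5 by DESeq2, 2 without Control line 2), and 6 had the other sign, none past the threshold. These were *Vmn2r23* (-3.32 to 2.15 with 1 line left out, above 0 when this was Control line 1), *Gnao1* (-0.06 to 0.17, below 0 when it was Control line 5 or HR line 8) and *Gnai2* (-0.10 to 0.12, below 0 for those 2 lines and at -0.05 with quality weights). Why they differ was not tested. No paired analysis was possible because HR and Control lines carry different line numbers.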
